A study of Mus musculus with 12 samples.

Results

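The 9 genes described here encode kinases that act on splicing factors, together with genes known for introns that stay in nuclear transcripts: Clk1, Clk2, Clk3, Clk4, Srpk1, Srpk2, Dyrk1a, Ogt and Mat2a. They were chosen by name from the 24100 genes listed in the count table, and all 9 were among the 14263 genes with enough counts to be tested. RNA was sequenced from SV40-immortalized mouse embryonic fibroblasts (MEFs) of 2 lines whose embryos came from different mothers. WT MEFs were Rtf2+/+ and RTF2-deficient MEFs were Rtf2-/lox, littermates within a line. Both genotypes received a Cre retrovirus 72 hrs before harvest, so Cre and SV40 were common to every group, and Cre excises the floxed part of the remaining Rtf2 allele only in the RTF2-deficient MEFs. Each line and genotype had 3 libraries, described as technical replicates, which gives 4 groups and 12 libraries. The p-values below therefore measure the spread between libraries, and the 2 lines are the only biological replicates. Within each line the genotypes come from different embryos, so genotype cannot be told apart from other differences between littermates.

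The CLK kinases are nuclear enzymes that phosphorylate the serine and arginine rich (SR) proteins and so release them from nuclear speckles, whereas the SRPK kinases phosphorylate SR proteins mainly in the cytoplasm, which lets them enter the nucleus. Detained introns are introns that remain in otherwise spliced, polyadenylated transcripts, which are held in the nucleus and not translated. Clk1, Clk4, Ogt and Mat2a are textbook examples, since each of these genes is known to shift between a detained and a fully spliced form as the activity or product of its own protein changes. Gene counts do not separate the forms, so the values below are totals per gene, and intron retention was not measured here. The study examined it in separate paired-end libraries made after rRNA depletion, and reported no significant global change in RTF2-deficient MEFs.

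The CLK genes also share an exon that some annotated transcripts skip, an event separate from intron detention. In GENCODE M21 (GRCm38), exon 4 of each CLK gene lies within the coding sequence, is left out of at least 1 transcript annotated as a target of nonsense-mediated decay (NMD), and has a length that leaves a remainder of 1 after division by 3, so that leaving it out shifts the reading frame. The exons are shown 5′ to 3′ on the strand of the gene because all 4 genes have this exon in common, and capitals mark bases that were identical in all 4 genes in an alignment of 97 columns, 39 of which were identical throughout.
Clk1: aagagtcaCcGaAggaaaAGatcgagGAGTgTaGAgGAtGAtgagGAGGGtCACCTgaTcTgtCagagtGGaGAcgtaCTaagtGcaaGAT
Clk2: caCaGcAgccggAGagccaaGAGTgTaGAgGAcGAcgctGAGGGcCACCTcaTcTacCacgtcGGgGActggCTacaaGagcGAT
Clk3: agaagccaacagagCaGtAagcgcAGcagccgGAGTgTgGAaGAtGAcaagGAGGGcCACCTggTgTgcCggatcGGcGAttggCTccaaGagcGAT
Clk4: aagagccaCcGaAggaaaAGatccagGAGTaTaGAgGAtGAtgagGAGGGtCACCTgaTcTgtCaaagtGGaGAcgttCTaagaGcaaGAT
They lie at chr1:58420121-58420211 on the - strand for Clk1 (91 bases), chr3:89169618-89169702 on the + strand for Clk2 (85 bases), chr9:57758627-57758723 on the - strand for Clk3 (97 bases) and chr11:51273078-51273168 on the + strand for Clk4 (91 bases). The exons of Clk1 and Clk4 were identical in 93.4% of aligned columns, against 53.6% to 60.4% for the other pairs. No run of 75 bases was shared between the principal transcripts of any pair of the 9 genes.

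For Mat2a, which encodes the enzyme that makes S-adenosylmethionine, the reference holds the sites through which METTL16, an RNA methyltransferase, is known to act on its splicing. The 9 letters TACAGAGAA, searched on the transcript strand, occurred 5 times in the 3′ UTR of Mat2a-201, in exon 9 of 9 on the - strand of chromosome 6. Each site is shown in capitals with its flanks.
Mat2a site 1, chr6:72434236-72434262: ggcgtaggtTACAGAGAAgccttcaag
Mat2a site 2, chr6:72433452-72433478: cttgtgataTACAGAGAAgtcacaggg
Mat2a site 3, chr6:72433273-72433299: tggtgtagcTACAGAGAAaccagcttc
Mat2a site 4, chr6:72433158-72433184: tggcgtaagTACAGAGAAgccatcacc
Mat2a site 5, chr6:72432939-72432965: ctggtgtggTACAGAGAAgccagcttg
Of 13324 genes with an annotated 3′ UTR, 336 (2.52%) held these letters at least once, and Mat2a was the 1 gene with as many as 5. The match describes the reference only, since the deposited counts hold no reads by position.

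All 9 genes had at least 1 annotated transcript with a retained intron. Clk1 and Clk4 each had 7 such transcripts, Srpk1 had 6, Clk2 and Clk3 had 4, Srpk2, Ogt and Mat2a had 3, and Dyrk1a had 1. Among the 13467 coding genes tested, 57.4% had at least 1 and 2.29% had at least 7. At least 3 were annotated for 8 of the 9 genes, against 21.1% of coding genes tested, and a transcript subject to NMD for 7 of the 9, against 27.7%. Clk3, Clk4, Srpk2 and Mat2a overlap a gene on the opposite strand, and since it is not given in the sources used here whether the counting used strand, their counts may hold reads of those neighbours. On the same strand, where counting by strand would not separate them, Clk4 overlaps the small RNA gene Gm25082, Srpk2 the rRNA gene Gm24009 and the intronic gene Gm43566, and Dyrk1a the processed pseudogene Gm15971. Clk1, Clk2, Srpk1 and Ogt overlap no annotated gene.

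The libraries had similar depth, with total counts between 39360167 and 44695002. Values are CPM, counts scaled to one common library total, after TMM normalization, which also corrects for differences in composition. Rtf2 lay between 44.8 and 57.8 CPM in the 6 WT libraries and between 5.44 and 6.66 CPM in the 6 RTF2-deficient libraries, as labelled. All 8 fibroblast markers were detected in every library, and the defining markers Epcam, Pecam1, Ptprc and Hbb-bs stayed at or under 0.308 CPM. Some other markers were present. The neural marker Tubb3 lay between 8.25 and 53.3 CPM, the highest value outside the fibroblast list, and Sox2 between 1.68 and 10.9 CPM. Of the muscle markers, Acta1 lay between 13.8 and 36.8 CPM and Myod1 reached 2.91 CPM. Of the epithelial markers, Krt18 lay between 1.22 and 12.4 CPM and Cdh1 reached 2.997 CPM. The endothelial marker Kdr lay between 6.71 and 15.2 CPM, and the leukocyte marker Cd68 between 1.44 and 8.95 CPM. Krt18 of 4 epithelial markers tested and Kdr, the 1 endothelial marker tested, were called higher in RTF2-deficient MEFs, and Sox2 of 2 neural markers tested was called lower. Each of these calls held in 3 of the 12 fits that left out a library, with an adjusted p of up to 0.104, 0.119 and 0.122. No leukocyte, muscle or fibroblast marker was called by edgeR over both lines, although Cd68 was lower in line 2 (log2 fold change -1.07, adjusted p = 0.0081), whereas DESeq2 called Pdgfra among the fibroblast markers, and Cd68, Myod1 and Pdgfra had an unadjusted p under 0.05 in edgeR. Summed, the epithelial list lay between 2.06 and 9.53 CPM in WT and between 2.77 and 13.1 CPM in RTF2-deficient libraries, the endothelial list between 6.78 and 10.1 and between 7.76 and 15.4, and the neural list between 17.5 and 56.1 and between 24.9 and 50.3. The leukocyte list lay between 1.51 and 9.06 CPM in WT and between 1.74 and 3.87 CPM in RTF2-deficient libraries, and the muscle list between 15.0 and 36.8 and between 14.2 and 30.2. Interferon scores, the median log2 CPM of 22 interferon-stimulated genes, ran from 4.88 to 8.74 in WT line 2 and from 1.30 to 4.26 in WT line 1. They ran from 1.12 to 2.47 in RTF2-deficient line 1, and in RTF2-deficient line 2 they were 2.35, 3.50 and 7.27 for replicates 1, 2 and 3. WT line 2 alone lacked Xist, at or under 0.132 CPM against at least 102.9 CPM elsewhere, and alone expressed the Y-linked gene Ddx3y. The part of these cell markers, of the interferon state and of embryo sex in the values below was not tested beyond the figures given.

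Transcripts of 2 of the 9 genes fell in RTF2-deficient MEFs, and both encode kinases of SR proteins, as most of the 9 do. Clk2 fell by 33.6%. Srpk1 fell by 29.8%, while their relatives Clk1, Clk3, Clk4 and Srpk2 stayed within 5.29% of WT in the effect over both lines and did not pass the test. In single lines Clk4 lay 6.55% above WT in line 1 and 10.3% below it in line 2, and Clk1 lay 8.25% below it in line 2, none of them past the test. Dyrk1a was 13.3% higher and just missed the threshold, and Ogt and Mat2a were lower by less than the threshold of the test required. A gene counted as called when its adjusted p in the quasi-likelihood fit of edgeR was below 0.05. Over both lines this called 8.18% of all genes tested lower and 4.98% higher, beside 2 of the 9 lower and none higher. At an unadjusted p under 0.05, and also in DESeq2, the count was 3 of the 9, with Dyrk1a added. Over all genes 28.5% had such an unadjusted p, a share close to that of the 9, and DESeq2 called 18.9%. None of the 9 changed by more than 1 on the log2 scale, as 1.72% of genes did with a call. As bulk values, fewer cells expressing a gene and less RNA per cell cannot be told apart.

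**Figure D1:**
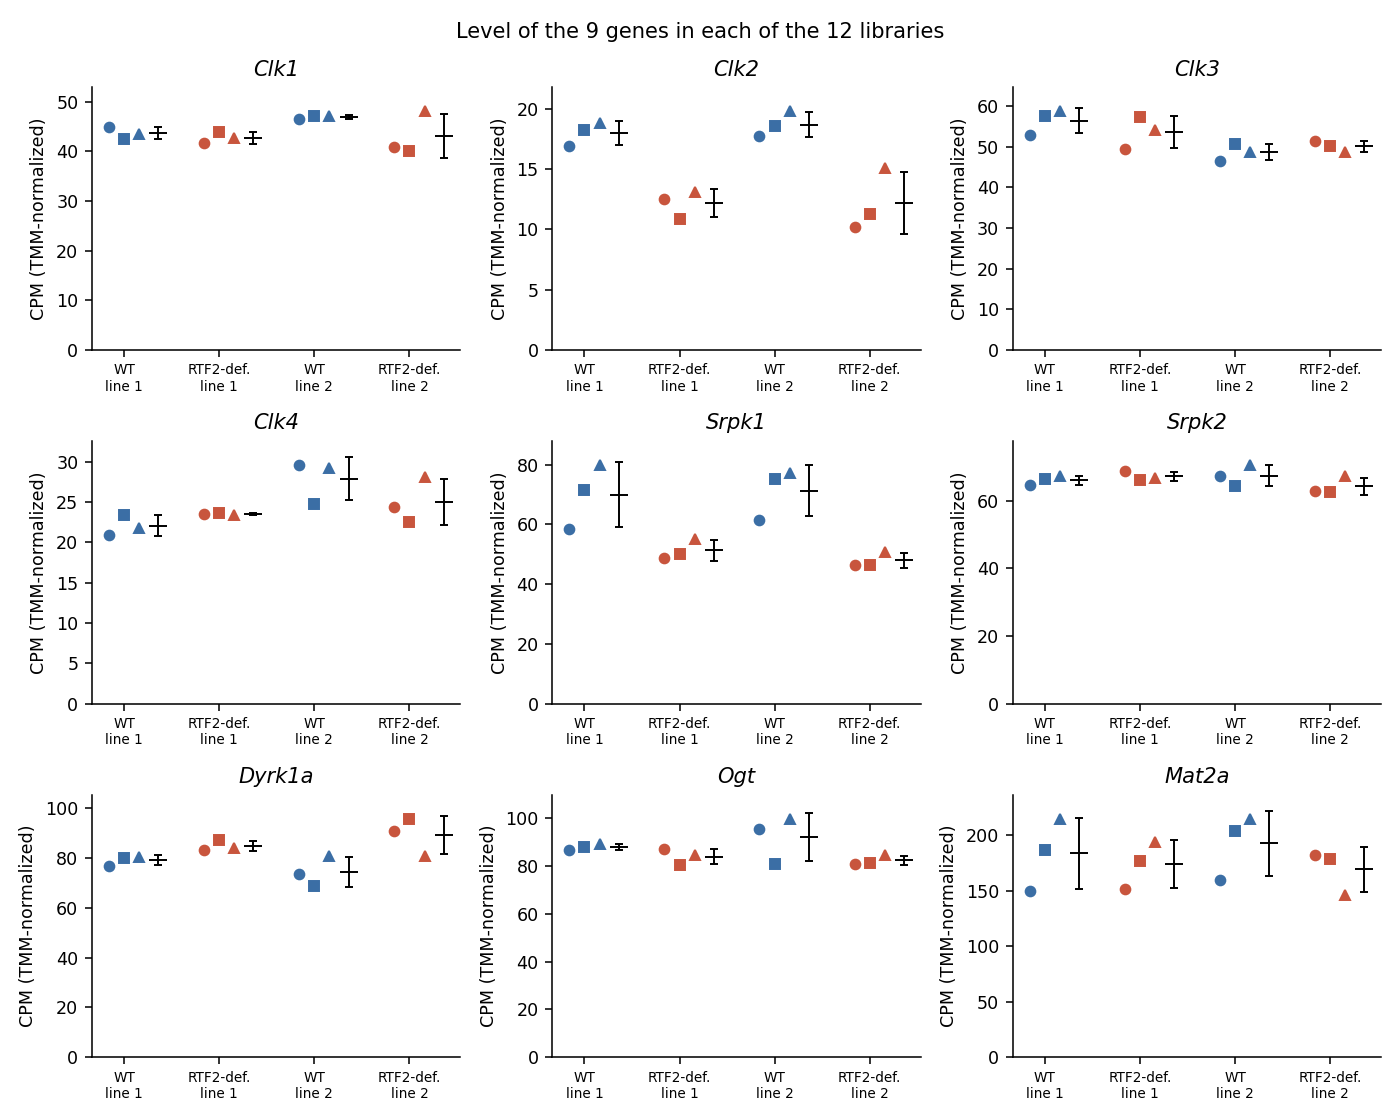
Level of each gene in CPM after TMM normalization (vertical axes from 0) in the 12 libraries, in blue for WT and in red for RTF2-deficient MEFs of each line. Circles, squares and triangles are replicates 1, 2 and 3, and black bars give the group mean ± SD (n = 3). Every RTF2-deficient library lies below every WT library for Clk2 and Srpk1, and the genotypes overlap for the other 7 genes.

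Clk2, a CLK kinase on chromosome 3 (89164795 to 89176921, + strand), gave the largest change. In WT line 1 it stood at 16.9, 18.3 and 18.8 CPM in replicates 1, 2 and 3, and in RTF2-deficient line 1 at 12.5, 10.9 and 13.1 CPM. In WT line 2 it stood at 17.7, 18.5 and 19.8 CPM, and in RTF2-deficient line 2 at 10.2, 11.2 and 15.1 CPM. No RTF2-deficient library reached the lowest WT library, and the highest of them was RTF2-deficient line 2 replicate 3, which was also the library of its group with the high interferon score. Over both lines the log2 fold change was -0.59 (SE 0.0926, 95% interval -0.79 to -0.39, adjusted p = 0.0014 in edgeR's quasi-likelihood test). Counts behind these values ran from 425 to 841 per library. Clk2 remained called without any 1 library, with an adjusted p of at most 0.0052, and with the interferon score as a further term, at 0.0035.

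Srpk1, the SR protein kinase on chromosome 17 (28587648 to 28622709, - strand), followed the same course. It stood at 58.5, 71.5 and 79.9 CPM in WT line 1 and at 48.6, 50.1 and 55.2 CPM in RTF2-deficient line 1. It stood at 61.5, 75.3 and 77.2 CPM in WT line 2 and at 46.5, 46.4 and 50.9 CPM in RTF2-deficient line 2. The groups did not overlap, although WT libraries were more spread than RTF2-deficient ones and the lowest WT value in either line was that of replicate 1. The log2 fold change was -0.51 (SE 0.0833, 95% interval -0.69 to -0.33, adjusted p = 0.0019 in edgeR's quasi-likelihood test), and the adjusted p was at most 0.0071 without any 1 library. Of all genes tested, 4.41% had every RTF2-deficient library below every WT library, as Clk2 and Srpk1 did, and 1.56% had every one above, as none of the 9 did. With the 3 libraries of each group summed to 1 sample, neither gene was called, at an adjusted p of 0.125 for Clk2 and 0.121 for Srpk1, and edgeR then called 0 genes in all, with 2737 at an unadjusted p under 0.05.

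The promoters of Clk2 and Srpk1 are printed because these are the 2 members called lower. They come from RefSeq (GRCm38.p6), run from 250 bases before the transcription start to 50 bases after it, and are written 5′ to 3′ on the strand of the gene, with capitals for the motifs found. Positions are counted from that RefSeq start. For Srpk1 it lies inside the GENCODE span given above, which begins at 28622709 on this strand. Most of the Srpk1 window before the start thus lies within that span.
Clk2, chr3:89164545-89164844, + strand: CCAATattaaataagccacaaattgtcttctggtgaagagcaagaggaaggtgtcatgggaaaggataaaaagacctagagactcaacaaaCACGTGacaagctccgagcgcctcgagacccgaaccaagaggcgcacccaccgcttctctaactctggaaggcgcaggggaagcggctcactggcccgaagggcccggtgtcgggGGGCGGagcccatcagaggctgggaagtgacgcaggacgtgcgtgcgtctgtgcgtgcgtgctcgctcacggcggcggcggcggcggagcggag
Srpk1, chr17:28622472-28622771, - strand: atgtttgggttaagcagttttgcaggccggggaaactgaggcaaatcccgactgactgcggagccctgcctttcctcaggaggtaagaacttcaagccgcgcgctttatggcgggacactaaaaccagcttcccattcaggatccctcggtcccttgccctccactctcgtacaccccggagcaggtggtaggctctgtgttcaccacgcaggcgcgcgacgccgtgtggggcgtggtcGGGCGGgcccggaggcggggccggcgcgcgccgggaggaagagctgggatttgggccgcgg
Both strands were searched for the E-box (CACGTG), the GC box (GGGCGG), the cAMP response element (TGACGTCA), an ETS site (CCGGAAG), a core promoter box of the letters TATAAA, and the letters CCAAT. Both promoters held 1 GC box, at -44 for Clk2 and -11 for Srpk1 by its first base, and 35.7% of 32851 promoters held at least 1. The Clk2 window also held the E-box letters, found in 7.2% of promoters, and the CCAAT letters, found in 37.4%. GC content was 61.0% for Clk2 and 65.0% for Srpk1, against a median of 52.7% over all promoters. These matches are letters in a window, and binding was not measured.

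Clk1, the CLK kinase whose own exon 4 skipping and detained introns are best known, did not pass the test. It stood at 45.0, 42.6 and 43.4 CPM in WT line 1 and at 41.6, 43.9 and 42.6 CPM in RTF2-deficient line 1. It stood at 46.4, 47.1 and 47.0 CPM in WT line 2 and at 40.9, 40.0 and 48.1 CPM in RTF2-deficient line 2. The lines overlapped between genotypes, and replicate 3 of RTF2-deficient line 2 was the highest library of all while the other 2 of its group were the lowest. Between genotypes the log2 fold change was -0.078 (95% interval -0.19 to 0.036, adjusted p = 0.348 in edgeR's quasi-likelihood test).

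Clk3, another CLK kinase, ranged from 46.6 to 58.8 CPM in WT and from 48.7 to 57.3 CPM in RTF2-deficient libraries. It changed by a log2 fold of -0.016 (95% interval -0.13 to 0.097, adjusted p = 0.868 in edgeR's quasi-likelihood test). Clk4, the closest relative of Clk1, did not pass the test between genotypes. Between the WT lines it was called (adjusted p = 0.0428), a call lost in 9 of the 12 fits that left out a library, with no filter (0.0696) and with the interferon score as a term (0.338). It stood at 20.9, 23.4 and 21.8 CPM in WT line 1, at 29.6, 24.8 and 29.2 CPM in WT line 2, at 23.5, 23.6 and 23.4 CPM in RTF2-deficient line 1, and at 24.4, 22.5 and 28.1 CPM in RTF2-deficient line 2. WT line 2 was thus the highest group, and the value of RTF2-deficient line 2 replicate 3 was the closest to it. Between genotypes it was at -0.033 on the log2 scale (95% interval -0.20 to 0.13, adjusted p = 0.808). The intervals of Clk1, Clk3 and Clk4 all end above the -0.59 measured for Clk2.

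Srpk2, the relative of Srpk1, had the smallest range of group means of the 9. It ranged from 64.4 to 70.6 CPM in WT and from 62.6 to 68.7 CPM in RTF2-deficient libraries. Its log2 fold change was -0.022 (95% interval -0.11 to 0.070, adjusted p = 0.764 in edgeR's quasi-likelihood test). Dyrk1a, a kinase of splicing and transcription factors that is best known for its dosage in Down syndrome, pointed the other way. It stood at 76.8, 79.8 and 80.5 CPM in WT line 1 and at 83.3, 87.1 and 84.1 CPM in RTF2-deficient line 1, without overlap. It stood at 73.7, 68.8 and 80.8 CPM in WT line 2 and at 90.7, 95.7 and 80.7 CPM in RTF2-deficient line 2, where the lowest RTF2-deficient library, replicate 3, reached the highest WT library. The log2 fold change was 0.18 (95% interval 0.055 to 0.31, adjusted p = 0.0596). Without that library it was 0.21 with an adjusted p of 0.0377 in edgeR, the 1 call among the 12 fits that left out a library (adjusted p up to 0.140). On all 12 libraries it was also called by DESeq2 (0.0186), with upper-quartile normalization (0.0498) and with the filter of 1 CPM (0.0491). It was not called with the interferon score as a term (0.155), the replicate block (0.136), no filter (0.0765) or no line term (0.0689).

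The fall of Clk2 and Srpk1 was set beside the course of their relatives with ratios within a library, which do not depend on how libraries are scaled. Clk2 was 0.377 to 0.433 of Clk1 in WT libraries and 0.248 to 0.314 in RTF2-deficient libraries, as CPM ratios that are not corrected for length. Against Clk3 it was 0.317 to 0.407 in WT and 0.190 to 0.310 in RTF2-deficient libraries, and against Clk4 it was 0.599 to 0.863 and 0.419 to 0.561. Srpk1 was 0.907 to 1.19 of Srpk2 in WT and 0.708 to 0.828 in RTF2-deficient libraries. None of these 4 ratios overlapped between genotypes. Clk2 and Srpk1 alone did not overlap either, like 4.41% of all genes tested, and Clk2 is the numerator of every ratio but the last. The ratios thus repeat that separation, and no share over ratios of other genes was computed.

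The shift was 0.697-fold for Clk2 over Clk1, 0.666-fold over Clk3, 0.674-fold over Clk4, and 0.716-fold for Srpk1 over Srpk2. The other 3 of the 7 ratios computed, among Clk1, Clk3 and Clk4, overlapped between genotypes. The pairs were set with the results above known, so the ratios are given as a description of size, with no test.

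**Figure D2:**
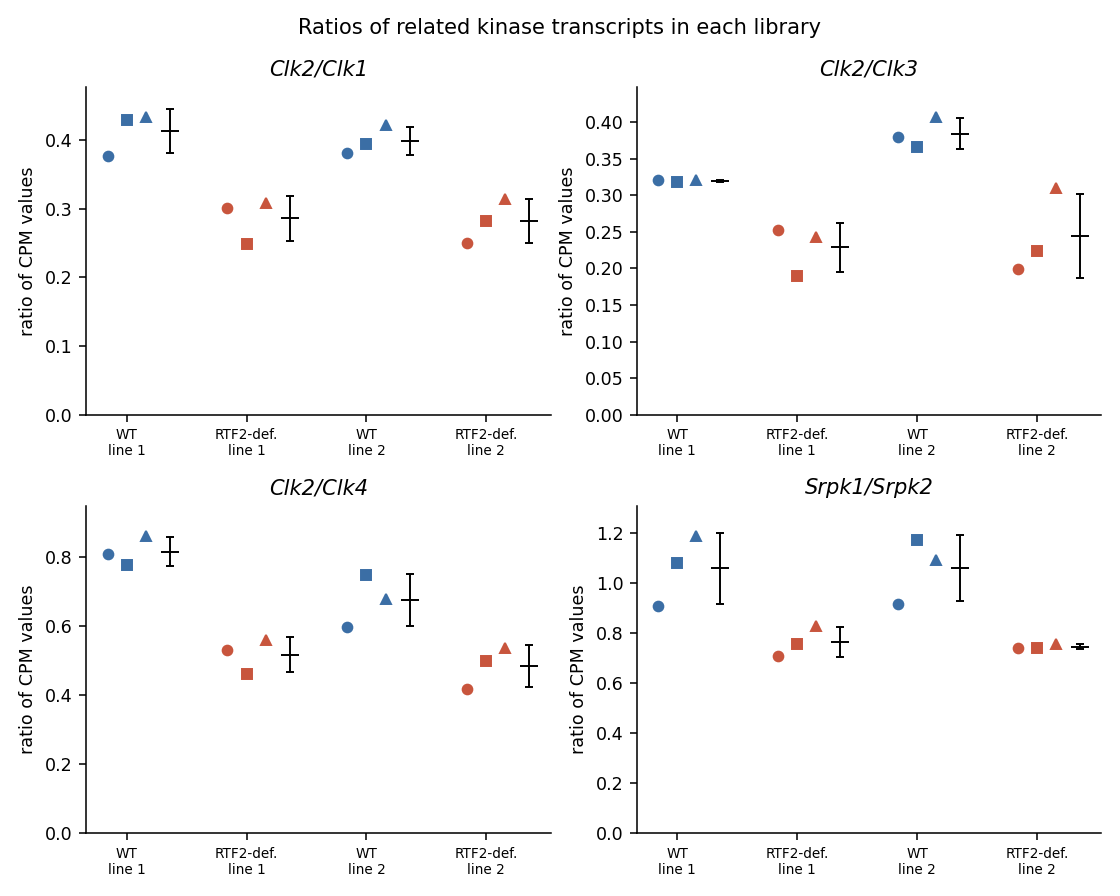
Ratio of CPM values within each library for Clk2 over each other CLK gene and for Srpk1 over Srpk2 (vertical axes from 0), by line and genotype. Blue marks WT and red RTF2-deficient MEFs, circles, squares and triangles are replicates 1, 2 and 3, and black bars give the group mean ± SD (n = 3). In each plot all 6 RTF2-deficient libraries lie below all 6 WT libraries, as they do for Clk2 and Srpk1 alone.

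Ogt and Mat2a, whose detained introns answer to O-GlcNAc and to S-adenosylmethionine, did not pass the test. Ogt, the transferase that adds O-GlcNAc to nuclear and cytoplasmic proteins, stood at 86.7, 88.1 and 89.0 CPM in WT line 1 and at 86.9, 80.4 and 84.4 CPM in RTF2-deficient line 1. It stood at 95.3, 80.7 and 99.8 CPM in WT line 2 and at 80.9, 81.4 and 84.5 CPM in RTF2-deficient line 2. The genotypes overlapped in both lines, in line 2 through WT replicate 2 alone. The log2 fold change was -0.11 (95% interval -0.23 to 0.0033, adjusted p = 0.187 in edgeR's quasi-likelihood test). Ogt lies on the X chromosome (101640060 to 101684351, + strand), and the WT line 2 libraries, with no Xist, were not called against WT line 1 in Ogt (log2 fold change 0.065, 95% interval -0.10 to 0.23, adjusted p = 0.643).

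Mat2a varied widely within groups. It stood at 150.0, 186 and 214 CPM in WT line 1 and at 151, 176 and 194 CPM in RTF2-deficient line 1. It stood at 159.7, 204 and 215 CPM in WT line 2 and at 182, 179 and 146 CPM in RTF2-deficient line 2. The order of the replicates was the same in both genotypes of line 1, and RTF2-deficient line 2 replicate 3 was the lowest of the 12 libraries. The log2 fold change was -0.13 (95% interval -0.37 to 0.10, adjusted p = 0.435 in edgeR's quasi-likelihood test), so a fall of the size seen for Clk2 lies outside the interval and one of moderate size does not.

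The lines were then taken apart. In line 1 the test called 2.52% of genes lower and 0.680% higher, and none of the 9 was among them, although Clk2 and Srpk1 had an unadjusted p under 0.05, as 13.9% of genes did. Clk2 had a log2 fold change of -0.56 (95% interval -0.86 to -0.27, adjusted p = 0.0502) and Srpk1 of -0.45 (95% interval -0.71 to -0.18, adjusted p = 0.0774 in edgeR's quasi-likelihood test). Clk2 was called in line 1 under 7 of the 20 alternatives and Srpk1 under 4, DESeq2 among them for both (adjusted p 0.0045 and 0.016), which called 6.04% of genes in line 1. Replicate numbers paired the libraries in line 1, and with a replicate block 199 genes were lower and 43 higher there, against 359 and 97 without it, and again none of the 9 was called.

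In line 2 the test called 7.03% lower and 5.42% higher. Genotype and embryo sex cannot be told apart within line 2, where Ddx3y lay between 91.8 and 106.7 CPM in WT and at or under 0.0678 CPM in RTF2-deficient libraries, and Xist at or under 0.132 CPM in WT and between 114.3 and 172.8 CPM in RTF2-deficient libraries. Clk2 fell by 0.62 (SE 0.136, adjusted p = 0.0137) and Srpk1 fell by 0.57 (SE 0.120, adjusted p = 0.0107) on the log2 scale. The call in line 2 was lost without RTF2-deficient line 2 replicate 2 for both genes, at an adjusted p of 0.0697 for Clk2 and 0.0557 for Srpk1. For Clk2 it was also lost without RTF2-deficient line 2 replicate 1 (0.059) and without WT line 2 replicate 3 (0.0506), and in a fit of line 2 alone (0.064). Dyrk1a had a log2 fold change of 0.26 (adjusted p = 0.053) in line 2 and of 0.10 (adjusted p = 0.661) in line 1. In line 2 it was called higher with RLE normalization (adjusted p = 0.0458), upper-quartile normalization (0.042), the filter of 1 CPM (0.0447) and DESeq2 (0.0132). It was also called when the third replicate of line 2 was left out, be it that of WT (adjusted p = 0.0379) or that of the RTF2-deficient cells (0.0137), whereas the replicate block gave 0.128. Ogt was called in line 2 only when WT line 2 replicate 2 was left out, at -0.25 (adjusted p = 0.0317). With the interferon score as a term, Mat2a in line 2 was at -0.41 (adjusted p = 0.0487).

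**Figure D3:**
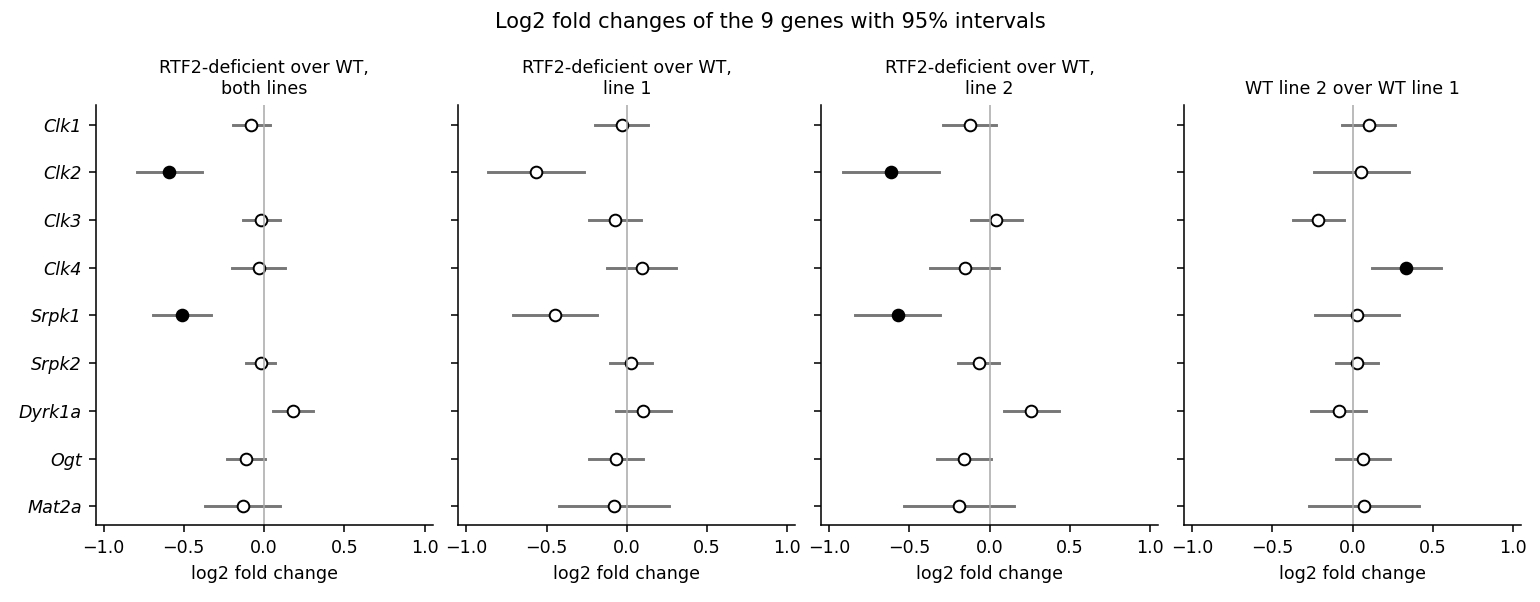
Log2 fold changes of the 9 genes with 95% intervals from edgeR's quasi-likelihood fit, for RTF2-deficient over WT in both lines, line 1 and line 2, and for WT line 2 over WT line 1. Filled points have an adjusted p under 0.05 over all genes tested, open points do not. Clk2 and Srpk1 lie left of 0 in both lines, at -0.56 and -0.45 in line 1 and at -0.62 and -0.57 in line 2.

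The effect of genotype did not pass a test of difference between lines for any of the 9, in edgeR or DESeq2 or at an unadjusted p under 0.05, while 1.29% of genes were called. Its difference, line 2 minus line 1, was -0.053 (95% interval -0.47 to 0.37) for Clk2 and -0.13 (95% interval -0.50 to 0.25) for Srpk1. The largest was that of Clk4, at -0.25 (95% interval -0.55 to 0.056, adjusted p = 0.739 in edgeR's quasi-likelihood test). Between WT line 1 and WT line 2, 14.0% of genes were called. Among the 9, Clk4 was higher in WT line 2 by 0.34 (SE 0.0978, adjusted p = 0.0428) on the log2 scale, with an adjusted p between 0.0186 and 0.142 when 1 library was left out. The call was lost in 9 of those 12 fits, all but those without WT line 2 replicate 2 or RTF2-deficient line 2 replicate 2 or 3, and with the interferon score as a term (0.18, adjusted p = 0.338). Clk3 had a log2 difference of -0.21 and was not called by edgeR (adjusted p = 0.0782), whereas DESeq2 called it (0.0252) among 19.3% of genes. The values of Clk2 and Srpk1 differed between the WT lines by 0.054 and 0.027.

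Levels can be compared between genes only per length, here as CPM per kb of annotated exon. Mat2a was the highest in every group and Clk2 the lowest. In WT line 1 Mat2a stood at 40.9 ± 7.19 CPM per kb (SD, n = 3), Ogt at 10.9 ± 0.145, Dyrk1a at 9.58 ± 0.24, Clk3 at 6.67 ± 0.369, Srpk1 at 5.66 ± 0.871, Clk1 at 5.37 ± 0.151, Srpk2 at 4.75 ± 0.0984, Clk4 at 3.81 ± 0.218 and Clk2 at 3.40 ± 0.182. In that order Clk3, Srpk1 and Clk1 overlapped with their neighbours and the others did not. In WT line 2 Srpk1 stood at 5.76 ± 0.691, next below Dyrk1a, and Srpk1, Clk1 and Clk3 overlapped, as did Srpk2 and Clk4.

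In the RTF2-deficient groups Srpk1 moved down this order. It stood at 4.15 ± 0.278 CPM per kb in line 1, below Srpk2 at 4.83 ± 0.0934, and at 3.87 ± 0.206 in line 2, below Clk4 at 4.31 ± 0.486, with which its libraries overlapped. Clk2 supplied 17.6% ± 0.462 of the summed CLK level per kb in WT line 1 and 17.8% ± 0.713 in WT line 2, against 12.8% ± 1.38 and 12.8% ± 1.77 in the RTF2-deficient groups (SD, n = 3). With the length of the principal coding transcript, used after seeing the data, its share was 12.5% and 12.7% in WT and 8.994% and 8.998% in RTF2-deficient MEFs. Mat2a remained the highest and Clk2 the lowest with each of the 3 lengths tried, and the order between them depended on the length.

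Genes whose profile over the 12 libraries came closest to that of a member were found among 9281 genes with a mean of at least 10 CPM, by the root mean square distance of centred log2 CPM. For Clk2, whose own profile lay 0.33 from its mean, they were Dvl1 (0.0912), a Wnt signalling protein, Mrpl24 (0.101), a mitochondrial ribosomal protein, and Parp2 (0.105), a poly(ADP-ribose) polymerase. For Srpk1, with 0.28 from its mean, they were Dtymk (0.0705), the thymidylate kinase, Mthfsd (0.0779) and Dus3l (0.0872), a dihydrouridine synthase. For Clk4, with 0.15, they were Ndst2 (0.0633), Sdccag8 (0.0794) and Ice2 (0.0815). All 6 genes named for Clk2 and Srpk1 were themselves lower in RTF2-deficient MEFs, with log2 fold changes from -0.47 to -0.62, as a search by profile requires.

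Around the 9 genes, the substrates of the kinases were not called. Of 13 genes for SR proteins and the related Tra2 factors, all tested, edgeR and DESeq2 called 0, with 0 at an unadjusted p under 0.05, and their median log2 fold change was 0.020 beside 0.0019 for all genes tested. Of 20 other genes often described with detained or retained introns, edgeR called 0, with a median of -0.0013, while 8 had an unadjusted p under 0.05 and DESeq2 called 4 (Ccnl2, Luc7l, Luc7l2 and Rbm39). The shares over all genes were 28.5% at that unadjusted p and 18.9% in DESeq2, the latter close to 4 of 20. The lowest of them was Ccnl2, a cyclin of splicing kinases, at -0.30 (adjusted p = 0.0567), named after its value was seen.

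Among 21 other kinases and phosphatases that act on splicing factors, 19 were tested, 1 fell and 2 rose, with a median of 0.037. Of all genes tested, 13.2% were called in either direction, and 3 of 19 is near that share. Cdk9, the kinase of transcription elongation, fell from 68.6 ± 6.56 to 45.8 ± 0.816 CPM (SD over 6 libraries), a log2 fold change of -0.58 (adjusted p = 1.18e-04). Dyrk2 rose from 23.5 ± 4.69 to 32.1 ± 3.23 CPM (0.47, adjusted p = 0.0163), and Hipk2, another kinase of the DYRK group, from 20.6 ± 6.86 to 32.2 ± 7.07 CPM (0.68, adjusted p = 0.0457). The call of Hipk2 held in 3 of the 12 fits that left out a library (adjusted p up to 0.0972), and those of Cdk9 and Dyrk2 in all 12. With the replicate block, Dyrk2 (adjusted p = 0.0616) and Hipk2 (adjusted p = 0.0922) were not called and Cdk9 was.

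In the pathways of Ogt and Mat2a, 2 of 8 and 3 of 14 genes tested were called, in both directions, beside the 13.2% of all genes tested. Of 8 genes of the O-GlcNAc cycle, Nagk, a kinase that salvages N-acetylglucosamine, fell (-0.49, adjusted p = 0.0465) and Pgm3, which makes a precursor of the sugar donor, rose (0.22, adjusted p = 0.0277 in edgeR's quasi-likelihood test). Of 16 genes of the S-adenosylmethionine cycle, 14 were tested, and Ahcyl1, a relative of the S-adenosylhomocysteine hydrolase that regulates calcium release, fell from 262 ± 27.7 to 172 ± 12.1 CPM (-0.60, adjusted p = 1.91e-04). Mtr, the methionine synthase, rose from 28.6 ± 2.34 to 39.1 ± 2.30 CPM (0.45, adjusted p = 3.16e-04), and Mettl16, whose protein binds the Mat2a sites shown above, rose from 43.8 ± 5.49 to 53.5 ± 7.10 CPM (0.29, adjusted p = 0.0312).

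The medians were 0.090 for the O-GlcNAc cycle and 0.071 for the S-adenosylmethionine cycle. Of 8 m6A and nuclear RNA factors linked to Mat2a splicing, Mettl3, the main m6A methyltransferase, was called lower (-0.21, adjusted p = 0.0228), with a list median of 0.023, and 1 of 8 is near the share over all genes. The calls of Ahcyl1 and Mtr held in all 12 fits that left out a library, while those of Nagk and Mettl16 held in 4 and those of Pgm3 and Mettl3 in 7. Of the 8 nuclear-retained or unpolyadenylated RNAs tested, Neat1, the RNA scaffold of paraspeckles, was lower (-0.85, adjusted p = 0.0012), with a median of 0.16 for the list. The 22 interferon-stimulated genes had a median of -1.44, with 0 called by edgeR or DESeq2 and 0 at an unadjusted p under 0.05.

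**Figure D4:**
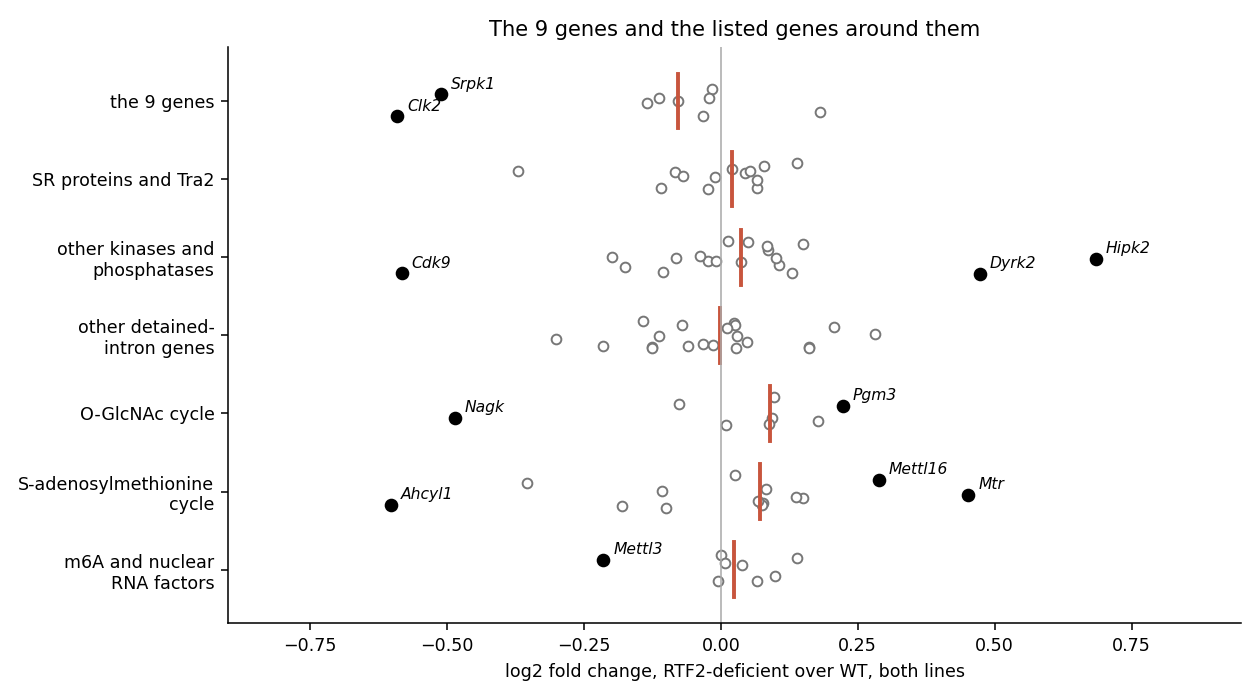
Log2 fold changes, RTF2-deficient over WT over both lines, of the 9 genes and of the genes tested in 6 lists around them (horizontal axis; vertical jitter has no meaning). Filled and named points have an adjusted p under 0.05, open points do not, and red bars are list medians. Clk2, Srpk1, Cdk9, Ahcyl1, Nagk and Mettl3 lie to the left among the called genes, and no SR protein and none of the other detained-intron genes is filled.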

How the data were processed

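The authors quantified single-end reads of 12 MEF libraries and deposited raw, unnormalized counts per gene with Entrez Gene numbers. For this step the study's methods describe Salmon with tximport on UCSC mm10 models, while HTSeq and mm10 stand in the submitters' processing notes, so how reads shared between genes, overlapping neighbours or introns were counted is not settled. Whether poly(A) RNA was selected or strand was used is not given in the sources used here. Each column was assigned by its label. Symbols came from RefSeq (24045 of 24100 matched) and transcripts from GENCODE M21. In R 4.3.3, edgeR 4.0.16 scaled the 14263 genes kept by filterByExpr with TMM and fitted a quasi-likelihood model (glmQLFit, glmQLFTest) on line and genotype, or on the 4 groups, with Benjamini-Hochberg adjustment over all genes tested. The steps were tested on simulated data. A count of 0 in the shallowest library allows up to 0.0762 CPM (3 counts), which covers counting error only.

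Alternative settings were RLE or upper-quartile scaling, no filter, 1 CPM in 6 libraries, DESeq2 1.42.0, a replicate block, an interferon score as a term, no line term, summed triplicates, single lines and single libraries left out. For levels they were other lengths and library totals. Same-numbered libraries deviated together in line 1, with r = 0.84, 0.77 and 0.80, and not in line 2, with r = -0.76, 0.22 and -0.40, where r is the correlation across genes of deviations from the group means. In line 2, WT replicates 1, 2 and 3 deviated together with RTF2-deficient replicates 3, 1 and 2 (r = 0.755, 0.794 and 0.639). The replicate block went by number in both lines, so in line 2 it did not join these libraries. Named were the 9 members, Rtf2, up to 4 called genes of a list by smallest p with 1 sign in both lines, and the 3 genes nearest in profile to the 3 members with the widest range of group means. The members, lists and tests were chosen with earlier results of these data known.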

Additional observations from a re-analysis of the deposited data

Results flagged for a closer look

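Clk4 in RTF2-deficient line 2 replicate 3 stood at 28.1 CPM, apart from the other 5 RTF2-deficient libraries, the nearest of which was at 24.4 CPM. The gap was 0.659 of the range of the 6 libraries. The same library had the highest Clk1 and Clk2 values of the RTF2-deficient libraries, the lowest Mat2a and Dyrk1a values, and an interferon score of 7.27, and their relation was not tested. It was the 1 value set apart among 20 sets of 6 libraries examined, where chance alone sets apart about 5% of sets.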

How the results depend on the processing

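Over both lines Clk2 and Srpk1 kept their call under every alternative and without each library, except with summed triplicates. Members called over both lines were then 0 and all genes called 0, in a fit of 4 samples and 3 terms that also left Rtf2 without a call. Leaving out 1 library gave 2 to 3 members and 1158 to 1974 genes called over both lines, 0 to 1 members and 192 to 480 genes in line 1, 0 to 3 members and 813 to 2372 genes in line 2, 0 members and 66 to 164 genes for the difference between lines, and 0 to 1 members and 1260 to 2221 genes between the WT lines. The lowest count over both lines was without RTF2-deficient line 2 replicate 2.

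Without the line term 1227 genes were called over both lines. In line 1, against 456 genes and 0 members, DESeq2 called 861 genes and 2 members, the interferon term 790 genes and 2 members, and upper-quartile normalization, the filter of 1 CPM and line 1 alone 1 member each. With the replicate block 242 genes and 0 members were called in line 1, and no call of a member changed over both lines, in either line or in the difference between lines. The block was not fitted for the WT lines alone, where Clk4 was called. Over both lines it ended the calls of Dyrk2, Hipk2, Kdr and Sox2. Line 2 alone called 969 genes and 1 member, Srpk1. For the difference between lines, DESeq2 called 409 genes and the interferon term 359. Between the WT lines, DESeq2 called 2 members and no filter and the interferon term 0 each. Causes were not tested.

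Values near 0 changed sign. With the interferon term these were Clk4 (0.038) and Srpk2 (0.0057) over both lines, Clk3 in line 2 (-0.030), the difference between lines of Clk2 (0.012), and Clk1 (-0.015), Clk2 (-0.15), Srpk2 (-0.030) and Ogt (-0.043) between the WT lines. Over the fits that left out a library, the ranges were -0.031 to 0.019 for Clk3, -0.054 to 0.014 for Clk4 and -0.031 to 0.0064 for Srpk2 over both lines, and -0.20 to 0.047 for Mat2a in line 1. They were -0.23 to 0.067 for Clk2 and -0.23 to 0.018 for Mat2a in the difference between lines. Between the WT lines they were -0.0053 to 0.079 for Clk2, -0.10 to 0.12 for Srpk1, -0.021 to 0.060 for Srpk2, -0.015 to 0.15 for Ogt and -0.069 to 0.19 for Mat2a. The log2 ratio of Clk3 to Clk4 ranged from -0.022 to 0.072. Other lengths or library totals moved 77 of 108 levels per length by more than 1 SD.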
